A study of Rattus norvegicus with 32 samples.

Results

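The genes described here are 41 genes of the synaptic vesicle and of transmitter release, taken by symbol from a table of read counts for 34322 genes. All 41 were found, and all 41 were among the 17059 genes with enough reads to be tested. They are 7 genes of the vesicle membrane and the synapsins, 10 synaptotagmins and Doc2 genes, 10 SNARE proteins and fusion factors, 9 genes of the active zone and of priming, 4 Rab GTPases and 1 clathrin adaptor. Polyadenylated RNA was sequenced in 32 libraries from wild-type rats, from the shell of the nucleus accumbens, the medial part of the ventral striatum. Fear conditioning paired shocks with lemon odour (the anxiety cue) or with a neutral cue in every rat, and cannabidiol (CBD, a plant cannabinoid that does not intoxicate) or vehicle was given before tests of anxiety with that cue. The 4 groups of 8 libraries were CBD with the anxiety cue, vehicle with the anxiety cue, CBD with the neutral cue and vehicle with the neutral cue. No group went without shocks, and the tissue followed a last shock in each. The labels give no strain, sex, age, dose, batch or animal, so the spread behind a p-value is that of these 32 libraries and can be technical in part.

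Transmitter is released when a synaptic vesicle fuses with the presynaptic membrane. Synaptobrevins on the vesicle (Vamp1, Vamp2) zip together with syntaxin (Stx1a) and Snap25 on the target membrane, and complexins and synaptotagmins tie this step to calcium. Scaffolds of the active zone (Bsn, Pclo, Erc2, the Rims and Unc13 genes) dock and prime vesicles, synapsins hold them in reserve, and Nsf with its partner Napb takes used SNARE complexes apart. In the nucleus accumbens the resident GABAergic medium spiny neurons express this machinery, while glutamate is released by axons whose cell bodies, and hence most of whose RNA, lie in cortex, thalamus and elsewhere. Many of the families hold paralogs used by different neurons, such as Vamp1 and Syt2 in fast-firing cells.

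For the release genes the spread within groups was close to the spread over all libraries. In edgeR's quasi-likelihood test no member passed an adjusted p of 0.05 in any of 5 comparisons, and neither did any other gene. Members differed instead with a tissue marker: Vamp1, Rims3, Cplx1 and Sv2a were higher, and Syt6 and Doc2b lower, in every one of 6 libraries with high Slc17a6 (VGLUT2, which loads glutamate in subcortical neurons), than in any of the other 26. That split was chosen after values were known, and 7.58% of the genes tested did not overlap in it. Levels below are in CPM, a gene's counts per 1000000 counts of its library. Transcript lengths were not used, so levels are compared between libraries and never between genes. In tissue RNA, fewer cells of a type and less RNA per cell cannot be told apart.

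Promoters are shown for the members whose levels in those 6 libraries did not overlap with those in the others. That rule was chosen after the values were known, and Cplx3, Sv2b, Syt2 and Rab3c had a larger spread over the 32 libraries. Windows of 250 bases before to 50 after a gene's start were taken from RefSeq on the build GRCr8, which held 32 of the 41 members (not Syn3, Syt5, Syt7, Syt13, Snap25, Snap91, Rims2, Doc2a and Doc2b). Each is printed 5′ to 3′ on the gene's strand. The first 4 belong to genes that were higher in the 6 libraries and the last to one that was lower, and capitals mark any match on either strand to GGGCGG (a GC box), TGACGTCA (the cAMP response element) or TTCAGCACC and GGACAGC (the left and right parts of the REST element, a site that shuts neuronal genes off in other cells).
Vamp1: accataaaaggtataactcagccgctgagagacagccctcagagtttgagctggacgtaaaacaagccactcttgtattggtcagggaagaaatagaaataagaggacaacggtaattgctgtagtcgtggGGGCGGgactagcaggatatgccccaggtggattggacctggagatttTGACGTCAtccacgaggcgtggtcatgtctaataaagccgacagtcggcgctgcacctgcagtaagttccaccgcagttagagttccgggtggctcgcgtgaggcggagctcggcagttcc
Rims3: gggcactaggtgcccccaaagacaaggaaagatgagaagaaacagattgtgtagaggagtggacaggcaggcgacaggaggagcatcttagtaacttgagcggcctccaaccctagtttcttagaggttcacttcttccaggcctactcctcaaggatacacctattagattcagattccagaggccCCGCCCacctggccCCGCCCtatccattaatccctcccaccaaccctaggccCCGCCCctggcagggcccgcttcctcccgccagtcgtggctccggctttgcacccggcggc
Cplx1: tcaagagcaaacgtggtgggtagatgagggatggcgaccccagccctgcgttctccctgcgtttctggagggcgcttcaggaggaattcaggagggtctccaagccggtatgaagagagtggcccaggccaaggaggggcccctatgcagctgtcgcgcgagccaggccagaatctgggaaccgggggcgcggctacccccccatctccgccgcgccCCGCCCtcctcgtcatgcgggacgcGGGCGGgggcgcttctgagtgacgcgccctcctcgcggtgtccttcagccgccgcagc
Sv2a: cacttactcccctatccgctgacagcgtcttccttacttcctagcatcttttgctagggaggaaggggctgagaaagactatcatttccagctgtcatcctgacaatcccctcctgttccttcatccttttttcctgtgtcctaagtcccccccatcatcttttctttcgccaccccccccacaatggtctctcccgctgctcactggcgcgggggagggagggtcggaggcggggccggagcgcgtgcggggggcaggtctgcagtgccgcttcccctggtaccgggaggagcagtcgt
Syt6: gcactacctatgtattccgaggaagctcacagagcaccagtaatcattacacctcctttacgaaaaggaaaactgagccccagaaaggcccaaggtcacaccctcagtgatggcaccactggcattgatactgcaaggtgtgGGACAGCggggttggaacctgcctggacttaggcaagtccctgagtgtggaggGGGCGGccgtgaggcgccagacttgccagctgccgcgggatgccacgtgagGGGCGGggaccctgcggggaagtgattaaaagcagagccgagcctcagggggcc
They lie on the plus strand at chr4:159698644-159698943, chr5:139714070-139714369, chr14:1328823-1329122, chr2:186430113-186430412 and chr2:193781226-193781525, in the order printed. The promoters of Rims3, Cplx1, Vamp1 and Syt6 held a GC box and that of Sv2a held none of the motifs.

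Over all members with a promoter, GGGCGG was found in 25 of 32 (78.1%), beside 34.9% of 27457 promoters of all genes. The median share of G and C was 62.9% in the members, beside 52.3% in all promoters, and the letters of a GC box are more frequent where that share is high. The right part of the REST element was found in 7 members (Syt2, Syt6, Unc13a, Unc13b, Rab3c, Cplx3 and Pclo; 21.9%, beside 6.64% of all promoters). Its left part was found in 1, Unc13a, which also held the right part (3.12%, beside 0.379%). The full cAMP response element was in 2, Syn1 and Vamp1 (6.25%, beside 1.91%), and its core TGACG, which the full element contains, in 9 (28.1%, beside 22%). TATAAA, the TATA box, was in 0 of 32, beside 14.3% of all promoters. Such matches are letters in a window and were not tested as sites.

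Libraries differed in the levels of tissue markers. Total counts were 11.65 to 24.0 M per library (M for 1000000), and the 41 members took 1.13 to 1.54% of them. Slc17a6 reached 20 CPM in 6 libraries, namely numbers 2 and 7 of CBD with the anxiety cue, 5 of vehicle with the anxiety cue, and 4, 7 and 8 of vehicle with the neutral cue. Those 6 held 57.3 to 183 CPM of Drd1, which marks the medium spiny neurons of the direct pathway, against 258 to 459.9 CPM in the other 26, so the striatal marker was present in every library but low in these. Slc17a7 (VGLUT1, the cortical counterpart) was at 877 CPM in CBD neutral-cue library 6 and at most at 62.3 CPM elsewhere. Alb, a liver transcript, reached 20 CPM in 4 CBD and 2 vehicle libraries with the anxiety cue and in 4 CBD and 0 vehicle libraries with the neutral cue. Plin1, a fat cell transcript, reached 5 CPM in 2 CBD and 3 vehicle libraries with the anxiety cue and in 0 CBD and 5 vehicle libraries with the neutral cue.

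Summed levels of the marker lists overlapped between groups, and their medians differed. The summed level of 19 septal, pallidal and other subcortical markers ran from 170.4 to 508 CPM (median 296) in CBD and from 165 to 576 CPM (median 213) in vehicle libraries with the anxiety cue. With the neutral cue it ran from 149 to 276 CPM (median 222) in CBD and from 212 to 708 CPM (median 309) in vehicle libraries. Of the 16 such markers tested, 11 had an unadjusted p under 0.05 for CBD against vehicle under the neutral cue, all with less in CBD libraries, and the median log2 fold change of the 16 was -0.94. Of 16 oligodendrocyte markers 15 had such a p, all with less in CBD libraries (median -0.39). In that comparison 22.6% of all genes had such a p, and 0 of 17059 passed after adjustment. The sum of 20 medium spiny neuron markers was 4169 to 13105 CPM in CBD and 2844 to 12709.9 CPM in vehicle libraries with the anxiety cue, and 8139.9 to 11186 CPM in CBD and 2457 to 10973 CPM in vehicle libraries with the neutral cue. The 14 cortical markers summed to 478 to 721 CPM in CBD and 415 to 802 CPM in vehicle libraries with the anxiety cue, and to 639 to 2169 CPM in CBD and 364 to 807 CPM in vehicle libraries with the neutral cue. Values from a fit with covariates for the subcortical, cortical, oligodendrocyte and choroid plexus lists are given beside the results as those with tissue covariates, and the part of these tissues in a result was not tested beyond them.

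**Figure D1:**
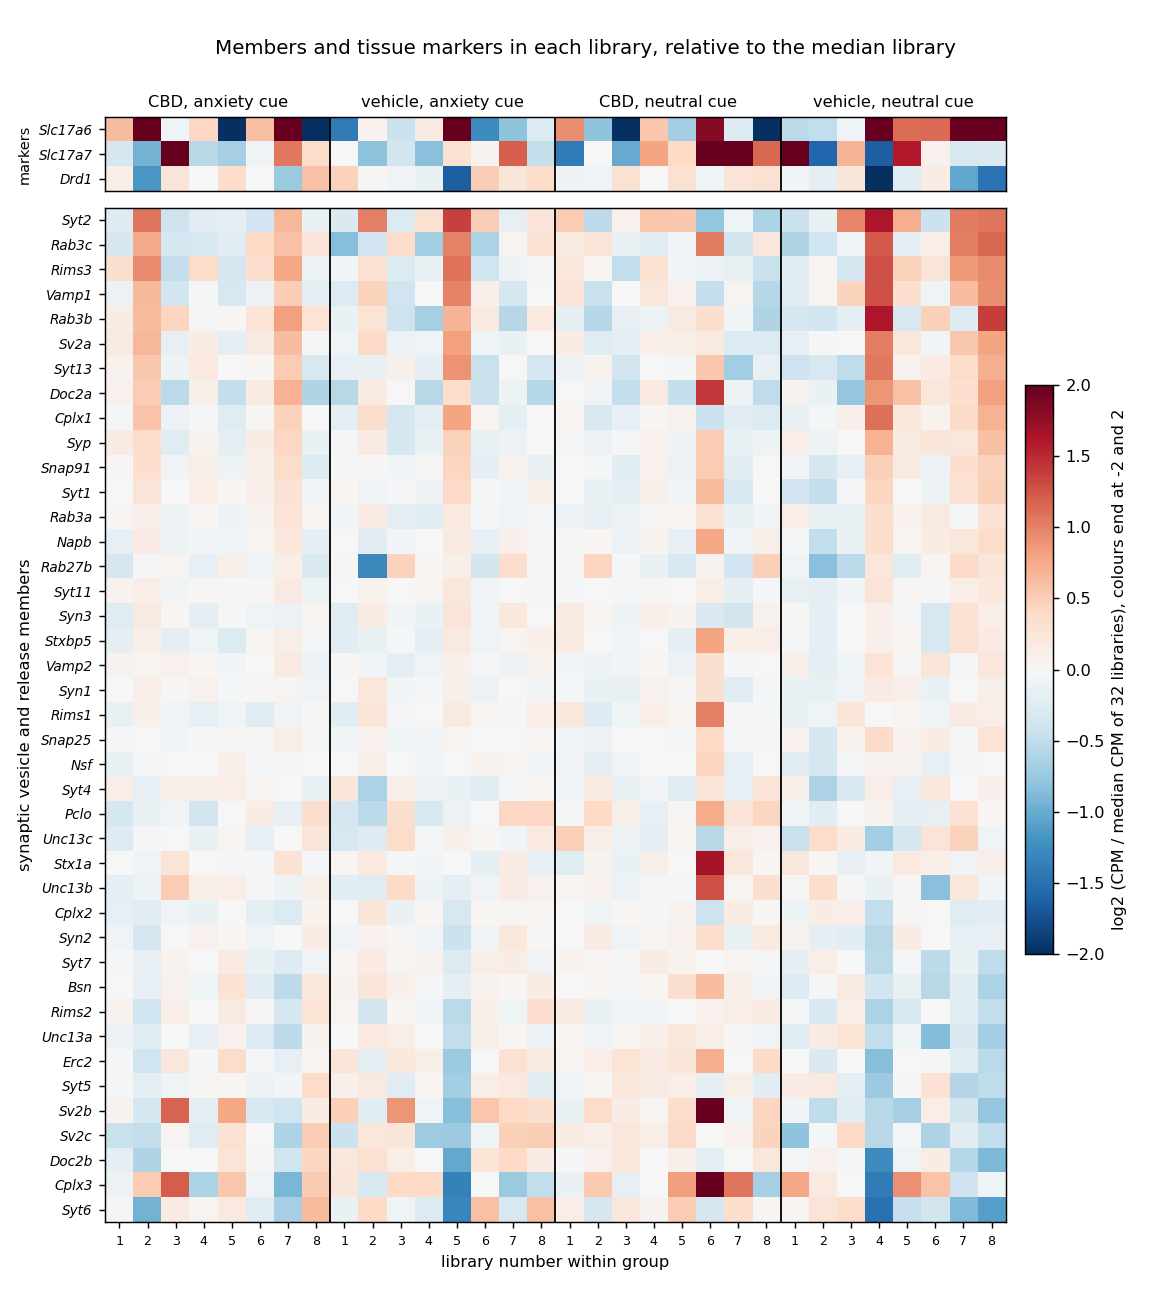
Each of the 41 members (rows) in each of the 32 libraries (columns, by group), as log2 of its CPM over its median CPM, with Slc17a6, Slc17a7 and Drd1 above on the same scale after adding 0.1 CPM. Members at the top are high, and those at the bottom low, in the 6 libraries with high Slc17a6, and CBD neutral-cue library 6 is high for Sv2b, Stx1a, Cplx3 and Unc13b.

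The 6 libraries with high Slc17a6 held release genes at other levels than the 26 without it. Without overlap between the 2 sets of libraries there were 6 members, 4 higher and 2 lower, where 7.58% of the 17059 genes tested did not overlap. With all 6 libraries on 1 side of the median of the 26 there were 30 members, 18 above and 12 below, where 47.6% of the genes tested had this. These libraries were picked by Slc17a6 after its values were known, so the values are a description with no test.

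Vamp1, a synaptobrevin, had lowest, median and highest levels of 292, 360.4 and 509 CPM in the 6 libraries and 141, 199.96 and 286 CPM in the 26. Rims3, a short Rim of the active zone, had 99.2, 113 and 143 CPM in the 6 and 41.5, 54.9 and 80.3 CPM in the 26. Cplx1, the complexin of fast central synapses, had 652, 775 and 1073 CPM in the 6 and 369, 488 and 639 CPM in the 26. All 3 sets stand apart, with the lowest of the 6 libraries above the highest of the 26. Sv2a, the vesicle glycoprotein that binds the drug levetiracetam, was the fourth, at 673, 767 and 935 CPM in the 6 and 383, 446 and 601 CPM in the 26. Syt2, the calcium sensor of fast synapses, had the largest ratio of medians (log2 1.22), at 139, 185 and 271 CPM in the 6 and 51.7, 79.2 and 177 CPM in the 26, and the sets overlapped. Rab3c, a vesicle Rab, came next (log2 1.17), at 34.9, 46.8 and 54.2 CPM in the 6 and 12.9, 20.8 and 47.9 CPM in the 26, and overlapped too. For Vamp1, Syt2 and Rab3c there were paralogs with smaller ratios: Vamp2 had a log2 ratio of 0.18, Syt1 of 0.37 and Rab3a of 0.26. Rab3b, a further paralog of Rab3c, was at 0.84.

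Syt6 and Doc2b were the members with no overlap in the other direction. Syt6, a synaptotagmin found outside synaptic vesicles, was at 28.7, 39.9 and 51.4 CPM in the 6 libraries and 58.6, 84.5 and 125 CPM in the 26. Doc2b, a high-affinity calcium sensor linked to spontaneous release, was at 16.2, 23.2 and 29.3 CPM in the 6 and 34.2, 41.4 and 52.2 CPM in the 26. Its paralog Doc2a went the other way, at 9.53, 11.4 and 13.8 CPM in the 6 and 4.40, 7.01 and 20.1 CPM in the 26, with overlap. The vesicle glycoprotein genes also split, with Sv2a higher and Sv2b and Sv2c at log2 ratios of -0.61 and -0.62. Complexins split likewise, with Cplx1 at 0.67 and Cplx2, the main complexin of forebrain principal neurons, at -0.27. Of the active zone scaffolds, Erc2 was at -0.55, Unc13a at -0.52, Rims2 at -0.48 and Bsn at -0.33. Of the fusion genes, Nsf (-0.011), Stx1a (-0.044) and Snap25 (0.11) had the 6 libraries on both sides of the median of the 26. Vamp2 (0.18) and Napb (0.26) had all 6 above it.

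CBD neutral-cue library 6 stood apart in another way. It held the highest level of 19 of the 41 members, where it held the highest level of 6.54% of the genes tested. Sv2b, the SV2 form of many glutamate neurons, was at 356 CPM there and at 123 CPM or less in the other 31 libraries. Stx1a was at 114 CPM there and at 44.2 CPM or less elsewhere, and Cplx3, a complexin known from retinal ribbon synapses and some cortical neurons, was at 14.4 CPM against at most 2.39 CPM. Rims1, Unc13b and Napb were also highest there. It held the lowest level of Syt2 (51.7 CPM) and of Cplx1 (369 CPM). Vehicle neutral-cue library 4, which has the lowest Drd1, held the highest level of 11 members and the lowest of 10, where it held the highest of 12.2% and the lowest of 10.6% of the genes tested.

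The members with the largest spread over the 32 libraries were Cplx3 (SD 0.86 of log2 CPM), Sv2b (0.67), Syt2 (0.64), Rab3c (0.57), Syt6 (0.55) and Rab3b (0.53). Syt11, an inhibitory synaptotagmin that does not bind calcium, had the smallest (0.11), with levels of 854 to 1158 CPM. Syn1 (0.12), Nsf (0.13), Vamp2 (0.13) and Snap25 (0.14) were close to it. Within groups the SD of these genes was close to that over all libraries, at 0.85 for Cplx3, 0.63 for Syt2 and 0.11 for Syt11.

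Members were also set against Drd1 within each of the 2 sets of libraries, with coefficients for every gene tested and p-values adjusted over all of them. Over the 26 libraries with Slc17a6 under 20 CPM, 3 of 41 members passed an adjusted p of 0.05 by both coefficients in a 2-sided permutation test with 100000 resamples, where 3.08% of 17058 genes did. Rims2 had Pearson r 0.64 (p = 0.000330, adjusted p = 0.0192) and a Spearman coefficient of 0.59 (p = 0.00165, adjusted p = 0.0453). For Doc2b these were Pearson r 0.61 (p = 0.00104, adjusted p = 0.0365) and a Spearman coefficient of 0.65 (p = 0.000490, adjusted p = 0.0253). Doc2a ran against Drd1, with Pearson r -0.63 (p = 0.000320, adjusted p = 0.0188) and a Spearman coefficient of -0.60 (p = 0.00151, adjusted p = 0.0433). Syt6 did not pass, with Pearson r 0.59 (p = 0.00186, adjusted p = 0.0507) and a Spearman coefficient of 0.56 (p = 0.00322, adjusted p = 0.0612). At an unadjusted p under 0.05 by both coefficients there were 7 members, where 15.2% of the genes had such values. Without the 2 libraries farthest from the median of Drd1, r was 0.52, 0.49, -0.57 and 0.45 for the 4 in the order named. Libraries of all 4 groups enter these relations, and a library's other tissues are shared by all its genes.

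Among the 6 libraries with high Slc17a6, an exact permutation test passed 0 of 41 members after adjustment, with 0% of 17056 genes passing. At an unadjusted p under 0.05 by both coefficients there were 11 members, where 11% of the genes had such values. The members with a Spearman coefficient of 1 were Syt6, Doc2b and Erc2, with Pearson r of 0.97, 0.98 and 0.94. Those with a Spearman coefficient of -1 were Vamp1, Rims3 and Syt2, with r of -0.99, -0.98 and -0.95. For each of the 6 the exact 2-sided p of r was 0.00139 (adjusted p = 0.118), the smallest that 6 libraries can give, and that of the Spearman coefficient was an exact p of 0.00278 (adjusted p = 0.160). Without the libraries farthest from the median, vehicle neutral-cue library 4 and CBD anxiety-cue library 7, r was 0.98, 0.99, 0.98, -0.98, -0.89 and -0.80 in the order named. With these left out of the 6, few libraries remain. The members were picked for a Spearman coefficient of 1 or -1 in the same 6, so these values are a description and no check. Among the members plotted against Drd1, Syt6, Doc2b and Rims2 had a positive r in both sets and Doc2a a negative one. In the 6 libraries r was 0.90 for Rims2 (exact p = 0.0139, adjusted p = 0.163) and -0.42 for Doc2a (exact p = 0.421, adjusted p = 0.683). Members not plotted, such as Erc2 and Cplx2, also had a positive r in both sets. In the 26 libraries their r was 0.23 (permutation p = 0.271) and 0.29 (permutation p = 0.15), so a shared sign can go with a large p.

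**Figure D2:**
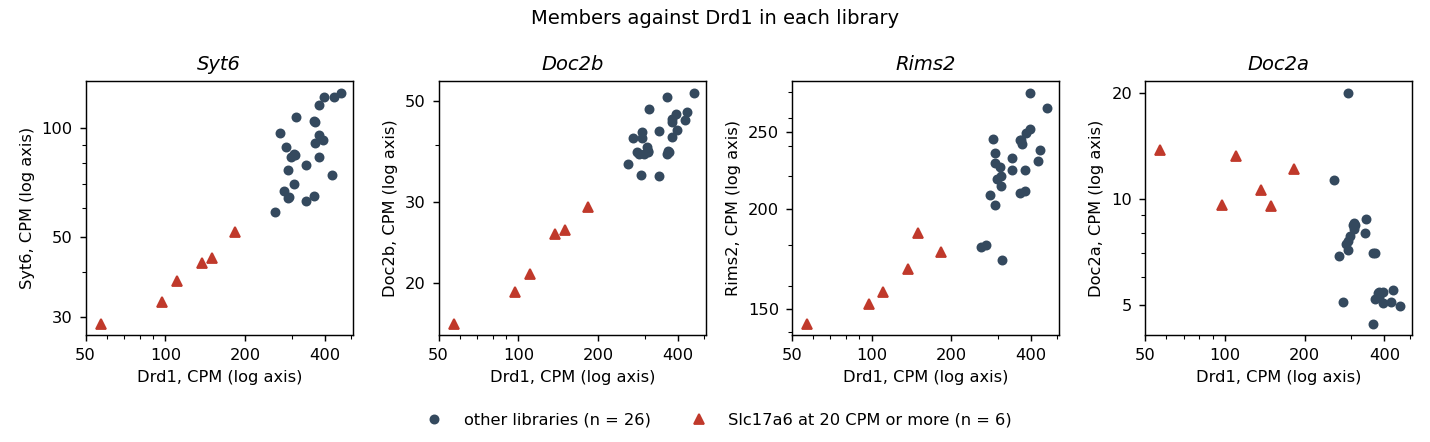
Levels of Syt6, Doc2b, Rims2 and Doc2a against Drd1 in each library, both in CPM on log axes, with the 6 libraries of high Slc17a6 as triangles and the other 26 as circles. Syt6, Doc2b and Rims2 have a positive r in both sets and Doc2a a negative one, and Doc2a is highest in CBD neutral-cue library 6, at 20.1 CPM.

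In each of 5 comparisons edgeR called 0 of 41 members, with 0% of the 17059 genes called (0, 0, 0, 0 and 0%). The neutral-cue libraries gave the most members at an unadjusted p under 0.05 for CBD against vehicle, 17 of 41 (11 above 0 and 6 below), where 22.6% of all genes had such a p. For CBD against vehicle under the anxiety cue there were 0 members, where 1.58% of all genes had one. For the anxiety cue against the neutral cue there were 4 members in CBD libraries, all below 0 (3.94% of all genes), and 5 in vehicle libraries, 4 above 0 and 1 below (12.7% of all genes). The interaction, which is the CBD effect under the anxiety cue minus that under the neutral cue, had 9 members, 3 above 0 and 6 below (13.8% of all genes). Single libraries moved these counts: the 4 for the cue in CBD libraries became 0 without CBD neutral-cue library 6 (median over the members 0.013) and 7 without CBD neutral-cue library 1, and the 9 of the interaction became 5 without vehicle neutral-cue library 4 and 17 without vehicle anxiety-cue library 5. The comparisons share libraries: vehicle neutral-cue libraries are the base of 2 of them and enter the interaction.

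Median log2 fold changes over the members were small. CBD against vehicle had -0.0093 with the anxiety cue and 0.087 with the neutral cue, the anxiety cue against the neutral cue had -0.050 in CBD and 0.016 in vehicle libraries, and the interaction had -0.093. Over all genes tested the medians lay between -0.0075 and 0.0055. Members above 0 numbered 19, 25, 15, 22 and 17 of 41 in the same order. The 9 active zone and priming genes stood on 1 side most often. Above 0 were 8 of 9 for CBD under the neutral cue (median 0.31) and 8 of 9 for the cue in vehicle rats (0.068). Below 0 were 8 of 9 in the interaction (-0.31) and 8 of 9 for the cue in CBD libraries (-0.21). Rims3 was the exception each time. Of all 17059 genes, 8690 and 8549 were above 0 in the first 2, and 8738 and 8731 below 0 in the others. Vehicle neutral-cue libraries enter all of these comparisons but the last. Medium spiny neuron markers stood on the same sides, with 20 of 20 above 0 for CBD under the neutral cue (median 0.52) and for the cue in vehicle libraries (0.45). Below 0 were 20 of 20 in the interaction (-0.55) and 19 of 20 for the cue in CBD libraries (-0.076). Cortical markers had 10 of 10 above 0 for CBD under the neutral cue (median 0.50). The tissue covariates include the cortical list and not the medium spiny neuron list, whose part in the active zone values was not tested. Rims3 is also the active zone member that was high in the libraries with high Slc17a6.

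**Figure D3:**
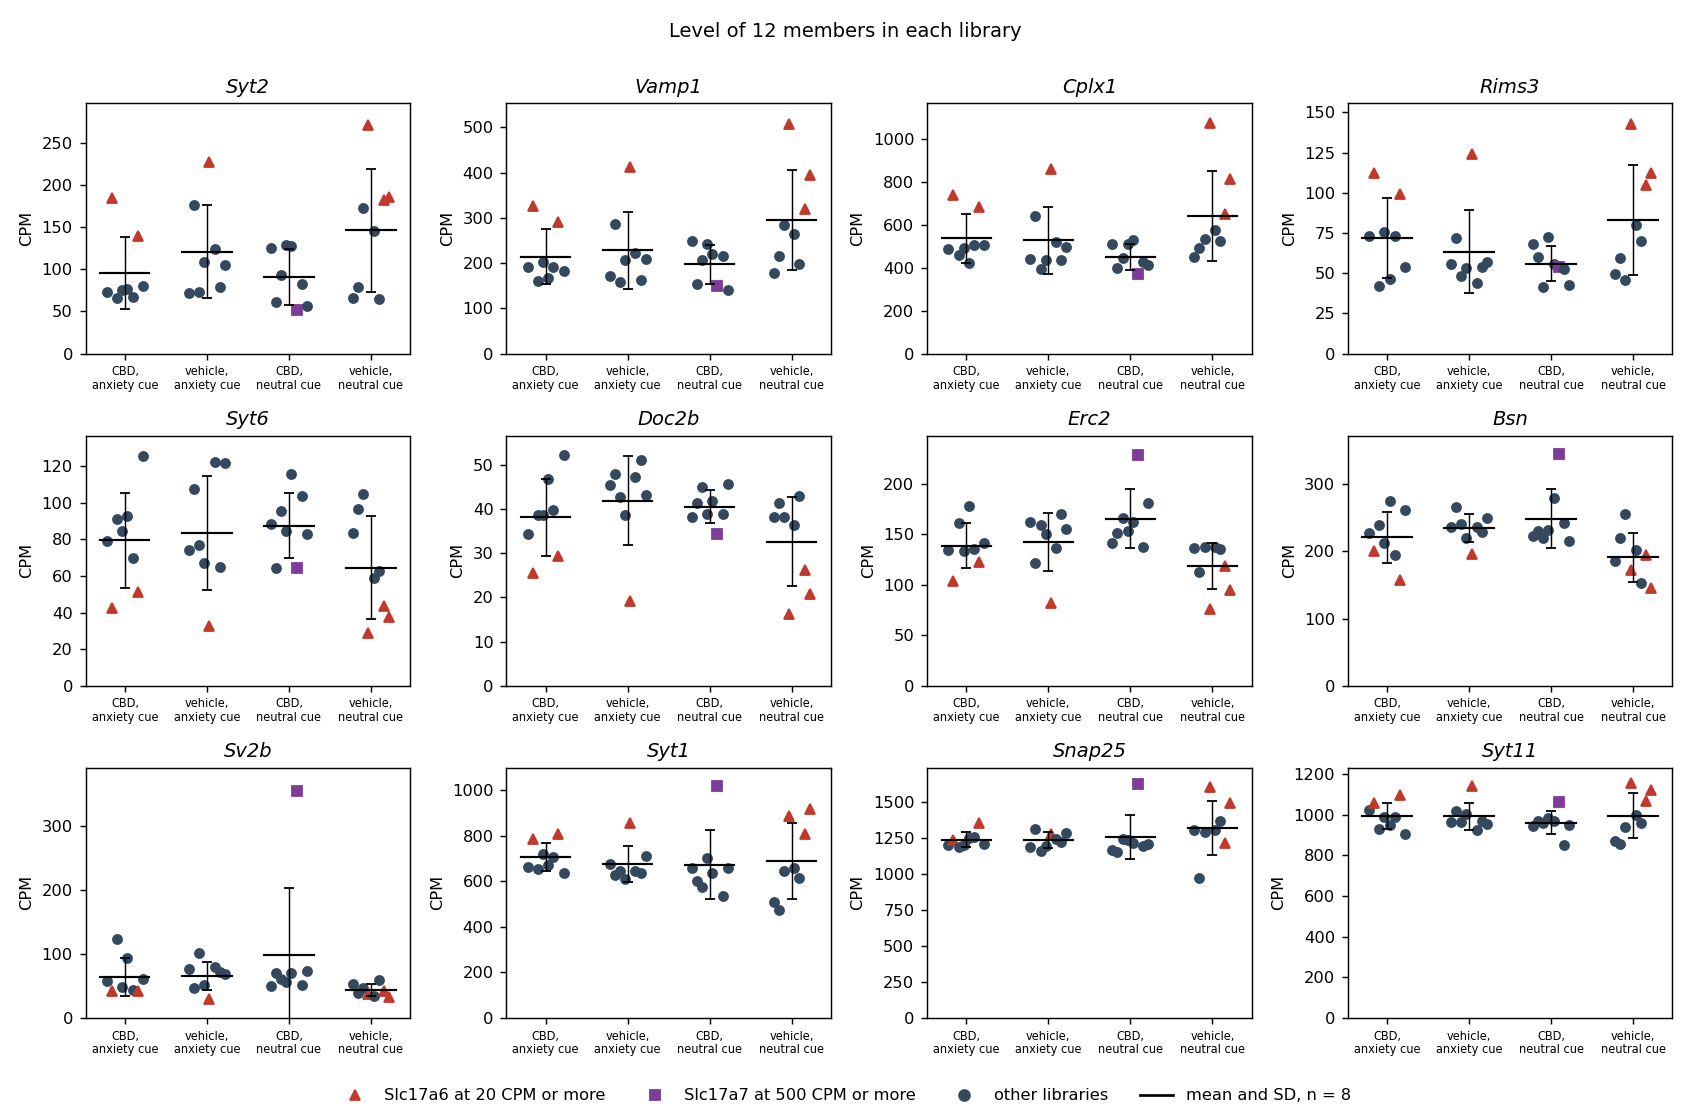
Level in CPM of 12 members in each library, by group, with the mean and SD of 8 libraries. Triangles are the 6 libraries with high Slc17a6 and the square is the library with high Slc17a7. Syt2, Vamp1, Cplx1 and Rims3 are highest in the triangles, Syt6 and Doc2b lowest, and Sv2b is highest in the square, at 356 CPM.

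Erc2 and Bsn had the smallest adjusted p of the active zone and priming genes for CBD under the neutral cue, after that of the vesicle gene Sv2b. Levels of Erc2 (lowest, median, highest) were 104, 135 and 178 CPM with CBD and 82.0, 153 and 169.8 CPM with vehicle under the anxiety cue, and 137, 158 and 228 CPM with CBD and 76.3, 127 and 138 CPM with vehicle under the neutral cue. Erc2, an ELKS scaffold that binds Rim and bassoon, had in CBD libraries its lowest level above the vehicle median, and the groups overlapped. Its log2 fold change was 0.51 (SE 0.145, adjusted p = 0.0916). It was 0.12 (SE 0.0853) with tissue covariates. Bsn was at 157, 219.7 and 274 CPM in CBD and 196, 236 and 266 CPM in vehicle libraries with the anxiety cue (lowest, median, highest), and at 215, 231 and 344 CPM in CBD and 145, 190.0 and 255 CPM in vehicle libraries with the neutral cue. Bsn, bassoon, was highest in CBD neutral-cue library 6 and lowest in vehicle neutral-cue library 8, which is high in Slc17a6. For it the log2 fold change was 0.42 (SE 0.120, adjusted p = 0.0933), and 0.16 (SE 0.0899) with tissue covariates.

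Unc13a, the main Munc13 priming factor, had the same order of group medians as Erc2. For Unc13a the lowest, median and highest levels were 210.0, 274 and 319 CPM with CBD and 215, 305 and 343 CPM with vehicle under the anxiety cue, and 285, 311 and 352 CPM with CBD and 165, 251 and 363 CPM with vehicle under the neutral cue. CBD libraries of the neutral cue lay within the vehicle range, which was the widest of the 4 groups. Its log2 fold change for CBD under the neutral cue was 0.32 (SE 0.123, adjusted p = 0.145), and 0.11 with tissue covariates. Piccolo (Pclo), the large relative of bassoon, was at 0.31 (SE 0.143, adjusted p = 0.204), Rims2 at 0.28 (SE 0.120, adjusted p = 0.177), and Unc13b, an alternative Munc13, at 0.35 (SE 0.169, adjusted p = 0.216). With tissue covariates these were 0.12, -0.0064 and 0.053, so that Rims2 had the opposite sign. Unc13b was 0.10 without CBD neutral-cue library 6.

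Rims3 ran the other way for CBD under the neutral cue. Rims3 was at 42.1, 73.2 and 113 CPM in CBD and 44.0, 54.9 and 124 CPM in vehicle libraries with the anxiety cue (lowest, median, highest), and at 41.5, 54.8 and 72.3 CPM in CBD and 45.6, 75.1 and 143 CPM in vehicle libraries with the neutral cue. The 3 highest vehicle neutral-cue libraries were those with high Slc17a6. Its log2 fold change was -0.54 (SE 0.221, adjusted p = 0.161) and turned to 0.12 (SE 0.0804) with tissue covariates. For the cue in vehicle libraries the active zone genes with the smallest p were Bsn at 0.32 (SE 0.120, adjusted p = 0.374) and Unc13a at 0.25 (SE 0.123, adjusted p = 0.390). With covariates Bsn was 0.23 (SE 0.0846) and Unc13a 0.10. In the interaction Bsn, Erc2, Unc13a and Rims3 were at -0.51 (SE 0.169), -0.56 (SE 0.204), -0.46 (SE 0.174) and 0.71 (SE 0.312), with adjusted p = 0.321, 0.321, 0.321 and 0.340. With covariates they were -0.32, -0.16, -0.22 and -0.15, and Rims3 had the opposite sign.

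Rims1, the core Rim scaffold, had its own pattern. Across groups Rims1 had lowest, median and highest levels of 109.7, 122 and 139 CPM with CBD and 111, 132 and 153 CPM with vehicle under the anxiety cue, and 108, 133 and 259.6 CPM with CBD and 117, 132 and 153 CPM with vehicle under the neutral cue. The highest level, 259.6 CPM, was that of CBD neutral-cue library 6. Its log2 fold change was -0.14 (SE 0.119, adjusted p = 0.9999) for CBD under the anxiety cue and -0.28 (SE 0.119, adjusted p = 0.995) for the cue in CBD libraries. Tissue covariates gave -0.26 (SE 0.0697, adjusted p = 0.9999) and -0.20 (SE 0.0702), and without CBD neutral-cue library 6 the cue value in CBD libraries was -0.095. Pclo, at -0.33 (SE 0.143, adjusted p = 0.995), was the other active zone gene with a small p for the cue in CBD libraries. It too was highest in CBD neutral-cue library 6, at 311 CPM, with 249 CPM in the next library of that group. Without that library 0 members had an unadjusted p under 0.05 in this comparison. Unc13c, the Munc13 of cerebellar granule cells, lay between -0.093 and 0.036 in the 5 comparisons.

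Vesicle membrane genes were led by Sv2b. Sv2b was at 41.3, 53.1 and 123 CPM in CBD and 30.3, 70.2 and 101 CPM in vehicle libraries with the anxiety cue (lowest, median, highest), and at 49.8, 65.3 and 356 CPM in CBD and 32.1, 40.5 and 60.1 CPM in vehicle libraries with the neutral cue. Without CBD neutral-cue library 6, at 356 CPM, the next highest CBD library of that cue was at 74.0 CPM. The log2 fold change for CBD under the neutral cue was 1.25 (SE 0.349, adjusted p = 0.0871), the smallest adjusted p among the members. It was 0.54 without that library and 0.20 (SE 0.200) with tissue covariates. In the interaction it was -1.30 (SE 0.488, adjusted p = 0.321), and -0.59 without the same library.

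Sv2a and Sv2c, the other SV2 genes, had opposite signs for CBD under the neutral cue. The lowest, median and highest Sv2a levels were 410.0, 514 and 734 CPM with CBD and 423, 437 and 818 CPM with vehicle under the anxiety cue, and 383, 454 and 521 CPM with CBD and 413, 503 and 935 CPM with vehicle under the neutral cue. The highest vehicle libraries were those with high Slc17a6. Sv2a was at -0.35 (SE 0.159, adjusted p = 0.191), and 0.070 with tissue covariates. Sv2c was at 74.4, 105 and 163 CPM in CBD and 69.1, 121 and 160.2 CPM in vehicle libraries with the anxiety cue (lowest, median, highest), and at 115, 126 and 156 CPM in CBD and 65.5, 89.4 and 150.2 CPM in vehicle libraries with the neutral cue. Sv2c, the form of the basal ganglia, was at 0.48 (SE 0.188, adjusted p = 0.149), and 0.15 with covariates, with an interaction of -0.57 (SE 0.265, adjusted p = 0.346). Its 8 CBD neutral-cue libraries all lay above the vehicle median, and the groups overlapped.

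Synaptophysin (Syp), a widely used marker of vesicles, had the only member value below 0 at an unadjusted p under 0.05 for the cue in vehicle libraries. Syp was at 923, 1178 and 1459 CPM in CBD and 853, 1034 and 1511 CPM in vehicle libraries with the anxiety cue (lowest, median, highest), and at 982, 1039.9 and 1552 CPM in CBD and 1019, 1265 and 1763 CPM in vehicle libraries with the neutral cue. Its log2 fold change was -0.25 (SE 0.122, adjusted p = 0.391) and -0.014 with tissue covariates. Syn2, a synapsin, was at 0.24 (SE 0.0974, adjusted p = 0.158) for CBD under the neutral cue, and 0.028 with covariates. Syn1 and Syn3 lay between -0.077 and 0.048 in all 5 comparisons.

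Among synaptotagmins Syt7, the slow high-affinity sensor of asynchronous release, had the smallest p for the cue in vehicle libraries. Levels of Syt7 (lowest, median, highest) were 320.1, 369 and 435 CPM with CBD and 316, 399.5 and 428 CPM with vehicle under the anxiety cue, and 372, 397 and 423 CPM with CBD and 264, 344 and 418 CPM with vehicle under the neutral cue. The CBD neutral-cue libraries span a narrow range, and the vehicle neutral-cue libraries reach the lowest levels, in libraries 4, 6 and 8. Syt7 was at 0.26 (SE 0.0849, adjusted p = 0.374) for the cue in vehicle libraries, 0.28 (SE 0.0849, adjusted p = 0.102) for CBD under the neutral cue and -0.37 (SE 0.120, adjusted p = 0.321) in the interaction. With tissue covariates these were 0.14 (SE 0.0659), 0.13 (SE 0.0695) and -0.17 (SE 0.0971).

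Syt2 had the most negative log2 fold change of the members for CBD under the neutral cue. Syt2 was at 65.9, 76.3 and 185 CPM in CBD and 72.0, 107 and 228 CPM in vehicle libraries with the anxiety cue (lowest, median, highest), and at 51.7, 88.1 and 129 CPM in CBD and 65.3, 159 and 271 CPM in vehicle libraries with the neutral cue. Both CBD groups had medians under those of their vehicle groups, and all groups overlapped. It was at -0.65 (SE 0.290, adjusted p = 0.186) under the neutral cue and -0.35 (SE 0.289, adjusted p = 0.9999) under the anxiety cue. Tissue covariates turned the first to 0.029 (SE 0.234) and put the second at -0.39 (SE 0.219). For Doc2b the lowest, median and highest levels were 25.6, 38.7 and 52.2 CPM with CBD and 19.1, 44.3 and 51.1 CPM with vehicle under the anxiety cue, and 34.4, 40.1 and 45.6 CPM with CBD and 16.2, 37.4 and 42.9 CPM with vehicle under the neutral cue. The 4 groups overlapped, and the lowest level of each group but CBD with the neutral cue was in a library with high Slc17a6. Doc2b was at 0.39 (SE 0.182, adjusted p = 0.385) for the cue in vehicle libraries and 0.056 with covariates.

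Syt6 was at 42.2, 81.8 and 125 CPM in CBD and 32.9, 75.4 and 122 CPM in vehicle libraries with the anxiety cue (lowest, median, highest), and at 64.1, 86.6 and 116 CPM in CBD and 28.7, 60.6 and 105 CPM in vehicle libraries with the neutral cue. The lowest library of each group but CBD with the neutral cue was again one with high Slc17a6. The log2 fold change of Syt6 was 0.47 (SE 0.253, adjusted p = 0.261) for CBD under the neutral cue and 0.40 (SE 0.252, adjusted p = 0.460) for the cue in vehicle libraries. With tissue covariates these were -0.021 and 0.026. Syt1, the fast calcium sensor of most forebrain synapses, lay between -0.0057 and 0.052 in all 5 comparisons, with SEs of 0.124 to 0.175. Syt4 and Syt11, which lack calcium binding in their first C2 domain, lay between -0.018 and 0.091. Syt5 and Syt13 reached at most 0.36 in absolute value.

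Of the SNARE proteins and fusion factors 3 of 10 (Cplx1, Vamp1 and Cplx3) had an unadjusted p under 0.05 for CBD under the neutral cue, beside 22.6% of all genes. Across groups Cplx1 had lowest, median and highest levels of 422, 498 and 739 CPM with CBD and 391.8, 468 and 858 CPM with vehicle under the anxiety cue, and 369, 436 and 529 CPM with CBD and 450.1, 556 and 1073 CPM with vehicle under the neutral cue. The highest CBD library with the neutral cue lay under the vehicle median. Cplx1 was at -0.48 (SE 0.155, adjusted p = 0.118), and -0.067 (SE 0.104) with tissue covariates. Vamp1 was at 160.2, 192 and 326 CPM in CBD and 158, 208 and 412 CPM in vehicle libraries with the anxiety cue (lowest, median, highest), and at 141, 212 and 249 CPM in CBD and 178, 274 and 509 CPM in vehicle libraries with the neutral cue. Again the vehicle maximum was library 4. Vamp1 was at -0.55 (SE 0.199, adjusted p = 0.131), and -0.015 (SE 0.126) with covariates.

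Cplx3 was counted with the fewest reads. The lowest, median and highest Cplx3 levels were 0.546, 1.23 and 2.39 CPM with CBD and 0.405, 0.932 and 1.36 CPM with vehicle under the anxiety cue, and 0.649, 1.25 and 14.4 CPM with CBD and 0.390, 1.098 and 1.95 CPM with vehicle under the neutral cue. Apart from CBD neutral-cue library 6 its levels were 0.39 to 2.39 CPM. It was at 1.34 (SE 0.499, adjusted p = 0.138) for CBD under the neutral cue and -1.28 (SE 0.497, adjusted p = 0.995) for the cue in CBD libraries. Without that library the values were 0.10 and -0.041, and covariates gave -0.12 and 0.055, both with the opposite sign. Cplx2 was at 1117, 1217 and 1423 CPM in CBD and 1078, 1382 and 1595 CPM in vehicle libraries with the anxiety cue (lowest, median, highest), and at 1017, 1358 and 1489.7 CPM in CBD and 955, 1305 and 1487 CPM in vehicle libraries with the neutral cue. All 4 groups overlapped. Cplx2 had the smallest p of the members for CBD under the anxiety cue, at -0.13 (SE 0.0886, adjusted p = 0.9999), and -0.062 with covariates.

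Of the core fusion genes, Snap25 and Vamp2 had log2 fold changes near 0 for CBD, and Nsf and Stx1a were above 0 under the neutral cue. Snap25 was at 1189, 1219 and 1351 CPM in CBD and 1156, 1231 and 1313 CPM in vehicle libraries with the anxiety cue (lowest, median, highest), and at 1151, 1212 and 1621 CPM in CBD and 968, 1301 and 1601 CPM in vehicle libraries with the neutral cue. The lowest Snap25 library was vehicle neutral-cue library 2 and the highest CBD neutral-cue library 6. Its log2 fold change was -0.038 (SE 0.0808) for CBD under the neutral cue and -0.0093 (SE 0.0808) under the anxiety cue. Vamp2 was at -0.043 (SE 0.0744) and 0.049 (SE 0.0744) in the same comparisons, and Nsf, the ATPase that recycles SNAREs, at 0.12 (SE 0.0776) and -0.042 (SE 0.0776). Stx1a was at 0.34 (SE 0.183, adjusted p = 0.255) for CBD under the neutral cue, but at -0.025 without CBD neutral-cue library 6. Stxbp5, tomosyn, a brake on SNARE assembly, was at -0.23 (SE 0.104, adjusted p = 0.995) for the cue in CBD libraries and -0.20 (SE 0.0742) with covariates, with -0.093 without that library. Napb, the neuronal SNAP cofactor of Nsf, lay between -0.15 and 0.061.

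Of the vesicle Rabs, which tether vesicles near release sites, Rab3b varied most between groups. Levels of Rab3b (lowest, median, highest) were 39.9, 48.7 and 71.7 CPM with CBD and 25.6, 41.3 and 65.1 CPM with vehicle under the anxiety cue, and 26.7, 36.8 and 51.1 CPM with CBD and 31.0, 34.7 and 124 CPM with vehicle under the neutral cue. Vehicle neutral-cue libraries 4 and 8 held 124 and 105.7 CPM, both over 3 times that group's median of 34.7 CPM, and both are high in Slc17a6. Library 7 of that group is also high in Slc17a6 and held 33.9 CPM, under the median. Rab3b was at -0.56 (SE 0.256, adjusted p = 0.197) for CBD under the neutral cue, 0.33 (SE 0.256, adjusted p = 0.9999) under the anxiety cue and 0.89 (SE 0.362, adjusted p = 0.332) in the interaction. Without the libraries high in Slc17a6 these were 0.0049, 0.31 and 0.31. Rab3a, the main Rab of synaptic vesicles, lay between -0.10 and 0.15, and Rab27b between -0.19 and 0.12. Rab3c was at -0.41 (SE 0.278) for the cue in vehicle libraries, and 0.078 with covariates. Snap91 (AP180), the clathrin adaptor that retrieves vesicles, lay between -0.073 and 0.11.

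**Figure D4:**
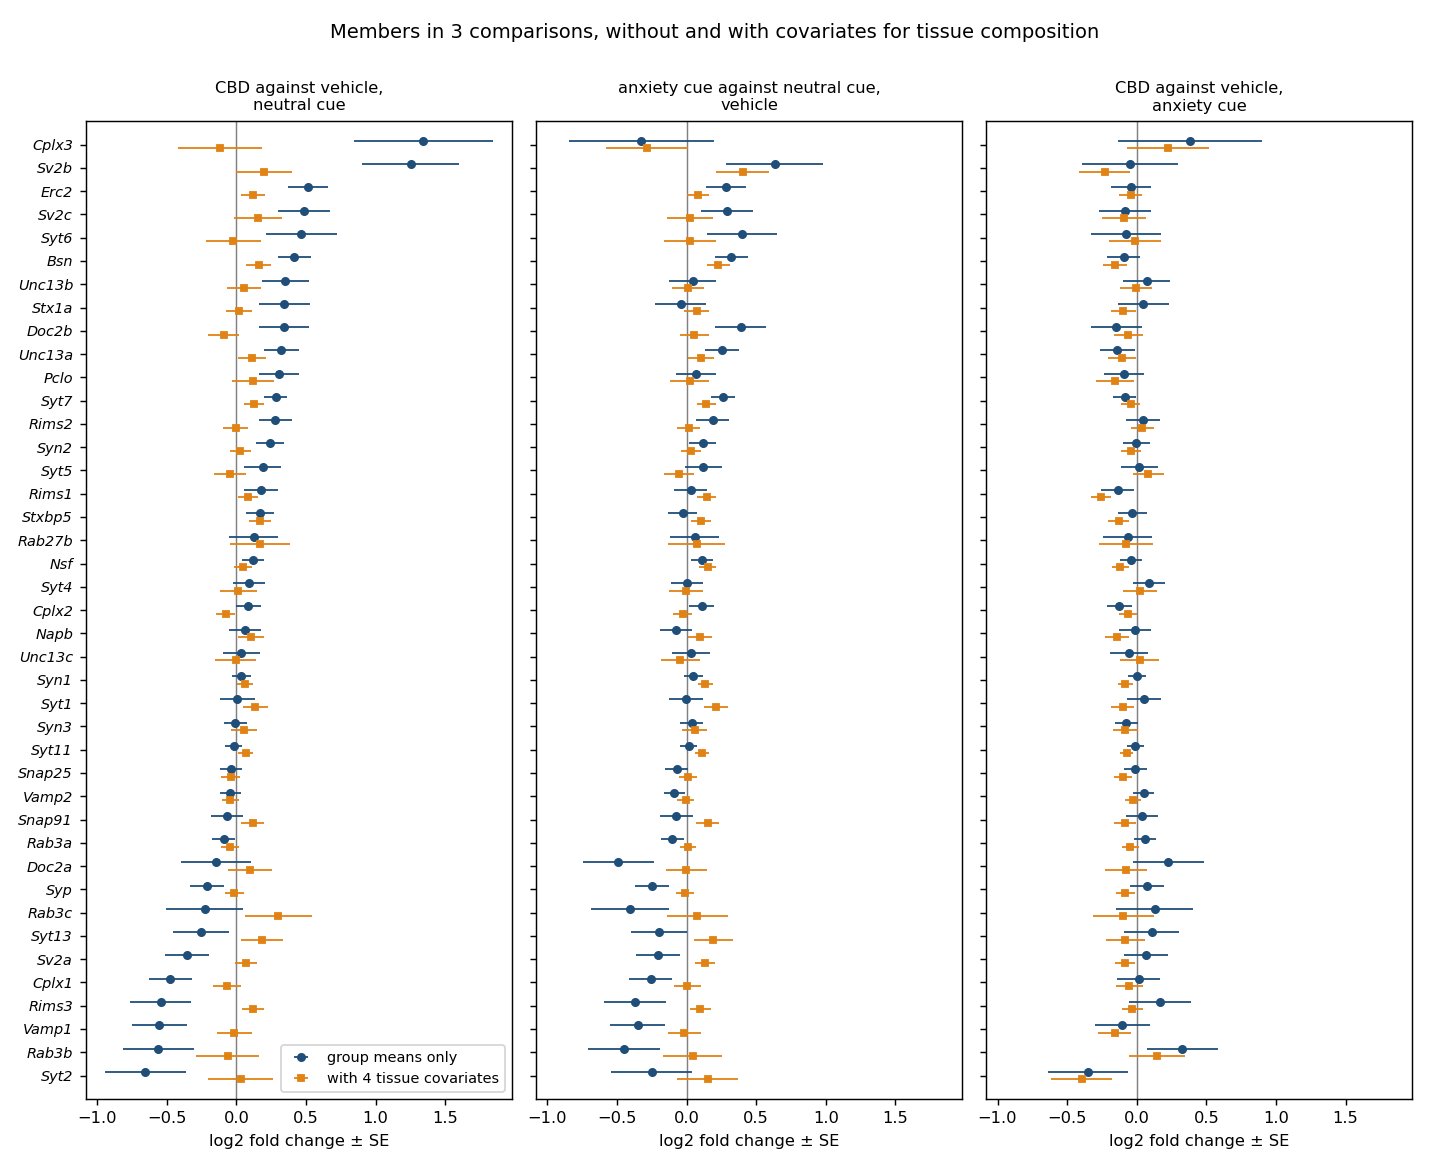
Log2 fold change with its SE for the 41 members in 3 comparisons, without covariates (circles) and with covariates for 4 tissues (squares). For CBD under the neutral cue the circles run from -0.65 (Syt2) to 1.34 (Cplx3) and the squares from -0.12 (Cplx3) to 0.30 (Rab3c).

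Tissue covariates lowered the number of members with a small p for CBD under the neutral cue. An unadjusted p under 0.05 was left for 1 member, Stxbp5 at 0.17 (SE 0.0774), which was not among the 17 without covariates, and 5.54% of all genes had such a p. Stxbp5 was at 234 CPM in CBD neutral-cue library 6 and at 153 CPM in the next library of that group. Its medians under the neutral cue were 142 CPM with CBD and 137 CPM with vehicle. For the cue in vehicle libraries 8 members had an unadjusted p under 0.05 (5.72% of all genes) and the median was 0.058, with 32 of 41 above 0. For the interaction 3 had one (5.49% of all genes), namely Rims1, Stxbp5 and Bsn. Under the anxiety cue the covariates moved the median for CBD against vehicle to -0.081, with 6 of 41 above 0, against 19 without them. None of these fits called a member. With covariates for the liver and fat transcripts in place of these, the values for CBD under the neutral cue were 1.27 for Sv2b, 0.45 for Erc2, 0.52 for Bsn and 0.27 for Syt7.

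Some other fits did call members, and they are given with their background. DESeq2 called 4 members for CBD under the neutral cue, all higher with CBD: Sv2b (adjusted p = 0.0347), Erc2 (0.0367), Bsn (0.0409) and Syt7 (0.0498), where it called 1.82% of the genes it tested. Without the 10 libraries high in Plin1, edgeR called 10 members for CBD under the neutral cue (5 higher and 5 lower; 15.7% of all genes), 13 for the cue in vehicle libraries (5 higher and 8 lower; 16.9%) and 6 for the interaction (4 above 0 and 2 below; 8.4%). That fit keeps 3 vehicle neutral-cue libraries, of which 2 are high in Slc17a6. The members called in all 3 of its comparisons were Cplx1, Rab3b, Rims3, Sv2a, Syt7 and Unc13a. Without vehicle anxiety-cue library 5, Erc2 passed for CBD under the neutral cue (adjusted p = 0.0479, 165 genes in all). Without CBD neutral-cue library 6 the median over the members was 0.017 for CBD under the neutral cue and 0.035 for the interaction.

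Other genes of the synaptic vesicle cycle were counted as lists. No gene of any list passed in edgeR. For CBD under the neutral cue 2 of 15 other synaptotagmin genes, 3 of 27 other SNARE and fusion genes, 4 of 27 other active zone genes and 8 of 27 genes of vesicle endocytosis had an unadjusted p under 0.05, beside 22.6% of all genes. Their median log2 fold changes were 0.11, 0.026, 0.012 and -0.0066, and the 9 active zone members had 0.31. Members and lists were chosen with earlier results of these data known, so these medians are a description with no test. Among endocytosis genes the smallest p were those of Synj2, a phosphoinositide phosphatase, at 0.43 (SE 0.155), and of the clathrin light chains Cltb at -0.21 (SE 0.0794) and Clta at -0.14 (SE 0.0566).

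Of 17 other vesicle membrane genes 5 had an unadjusted p under 0.05 for CBD under the neutral cue, all below 0, beside 22.6% of all genes, and 6 of the 17 were above 0. Examples, chosen after their values were seen, are Slc18a3, the acetylcholine transporter of vesicles, at -1.05 (SE 0.347) and its partner in cholinergic vesicles Slc10a4 at -0.71 (SE 0.213). In the interaction these were 1.35 (SE 0.488) and 0.92 (SE 0.300). Of 12 interneuron markers, which include Chat and Slc5a7 of cholinergic neurons, 7 had an unadjusted p under 0.05 for CBD under the neutral cue. Of these 1 was above 0 and 6 below, and the median of the 12 was -0.48. Septal, pallidal and other subcortical markers had a median of -0.94 there. The part of tissue in the values of Slc18a3 and Slc10a4 was not tested. The 17 subunits and partners of the vesicle proton pump, which loads vesicles with acid, had small values on 1 side: 16 of 17 were above 0 for CBD under the anxiety cue (median 0.034), 16 of 17 below 0 for CBD under the neutral cue (-0.089) and 15 of 17 below 0 for the cue in vehicle libraries (-0.081). For the cue in vehicle libraries Atp6v0b was at -0.32 (SE 0.121) and Atp6v0e1 at -0.25 (SE 0.1002). Members of 1 complex share libraries and counting, and the lists were not tested as sets.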

How the data were processed

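Polyadenylated RNA of 32 libraries was extracted with a Zymo kit and sequenced commercially, as the labels' protocols say. The authors deposited 1 table of raw read counts per gene. The submitters' processing notes name STAR, featureCounts and DESeq2, with no versions, and 2 builds, Rnor_6.0 and mRatBN7.2, whose roles they do not say. Whether counting used strand is not stated there, so overlapping genes are uncertain. Libraries were grouped by the treatment label, with the label for no cue read as the neutral cue of the design text. No pair of libraries, of 496, held identical values.

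The 41 members and all gene lists were chosen with earlier results of these data known. Counts of all genes were fitted with edgeR 4.0.16 in R 4.3.3 (filterByExpr by group, 17263 genes left out; TMM scaling; a quasi-likelihood model with 4 group means over 32 libraries; common biological coefficient of variation 0.215, median 0.164). The Benjamini-Hochberg adjustment ran over 17059 genes, with a threshold of 0.05. The SE is the log2 fold change over the root of F. CPM values are not TMM-scaled, and log2 CPM used a prior of 2 counts. Alternatives were DESeq2 1.42.0, its size factors in edgeR, voom with quality weights in limma 3.58.1, no filter on low counts, 1 CPM in 8 libraries, robust estimation, the compared groups alone, covariates for 4 tissues or for liver and fat, and leaving out libraries singly or by Slc17a6, Alb or Plin1. The edgeR fit was tested on simulated counts for 4 comparisons, without the interaction, and the other steps were not tested in this way. Members named are the 4 with the smallest p in each comparison and the 6 with the largest spread; others stand as role examples, chosen after their values were seen. Without transcript lengths, naming by the level within a role was not used. Correlations used permutation in Python 3.11.15, with p-values adjusted over all genes tested.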

Additional observations from a re-analysis of the deposited data

Results flagged for a closer look

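Single libraries lay far from the other 7 of their group for 27 of the 164 sets of 1 member in 1 group of 8. A library counted where its gap to the nearest other, as a share of the group's range, exceeded Dixon's critical value for 8 samples. Chance gives this in about 1 of 20 independent groups. The rule was run on the members alone, with no share over all genes beside it. Members share libraries, so the 164 sets are not independent and the 27 cannot be judged by that rate. The gap as a share of the range stands in brackets after each gene below.

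CBD neutral-cue library 6, the library with 877 CPM of Slc17a7, was the highest of its group for 16 members: Syp (0.689), Syt1 (0.654), Stx1a (0.863), Snap25 (0.813), Snap91 (0.634), Vamp2 (0.672), Stxbp5 (0.708), Unc13b (0.783), Rims1 (0.728), Rab3a (0.587), Rab3c (0.686), Cplx3 (0.890), Sv2b (0.921), Nsf (0.736), Napb (0.764), Doc2a (0.778). Sv2b was at 356 CPM there against 74.0 CPM in the next library, and Stx1a at 114 CPM against 42.1 CPM. The same library was lowest for Cplx2 (0.534).

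Vehicle anxiety-cue library 5, with 47.0 CPM of Slc17a6 and 97.4 CPM of Drd1, was the highest of its group for 6 members: Syt1 (0.593), Syt11 (0.566), Syt13 (0.701), Snap91 (0.599), Rims3 (0.653), Sv2a (0.549). It was lowest for Doc2b (0.609), at 19.1 CPM against 38.6 CPM in the next library. In the CBD anxiety-cue group, library 8 was highest for Syt5 (0.642), library 7 for Snap25 (0.582) and library 3 for Unc13b (0.580). No vehicle neutral-cue library was marked for any member, although library 4 held the highest level of 11 members and the lowest of 10 over all 32 libraries (12.2% and 10.6% of the genes tested).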

How the results depend on the processing

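Results were recomputed under 45 other settings, 32 of which left out 1 library. Values of the members with the smallest p were recomputed in each, and outside the fits without 1 library 11 had the opposite sign. With tissue covariates CBD against vehicle under the neutral cue gave 0.029 for Syt2, -0.0064 for Rims2, 0.12 for Rims3, -0.12 for Cplx3 and 0.070 for Sv2a, the cue in CBD libraries gave 0.055 for Cplx3, and the interaction gave -0.15 for Rims3. Without libraries high in Slc17a6, Rab3b was at 0.0049 for CBD under the neutral cue. Without those and the library high in Slc17a7, a setting chosen after seeing the data, Cplx3 was at -0.23 for CBD under the neutral cue and 0.055 for the cue in CBD libraries. Voom with quality weights put Cplx3 at -0.023 for CBD under the neutral cue. Without libraries high in Plin1 the members called were 13 for the cue in vehicle libraries, 10 for CBD under the neutral cue and 6 for the interaction, and the medians -0.11, -0.059 and 0.040. DESeq2 called 4 for CBD under the neutral cue, 365 genes in all. Leaving out 1 library gave 0 to 1 members called for CBD under the neutral cue and an interaction median of -0.15 to 0.035. Members at an unadjusted p under 0.05 then ranged from 10 (without vehicle neutral-cue library 4) to 18 for CBD under the neutral cue, and from 2 to 16 for the cue in vehicle libraries, the highest without vehicle anxiety-cue library 5. Other members in the text also had the opposite sign, with covariates Syt6 (-0.021) for CBD under the neutral cue and Rab3c (0.078) for the cue in vehicle libraries, and Stx1a (-0.025) for CBD under the neutral cue without CBD neutral-cue library 6. The cause of these changes was not tested. Depth limits Cplx3, at 0.39 to 14.4 CPM, more than the other members. No paired analysis was possible because the library numbers follow the order of deposition and pair nothing across groups.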
